A study of Mus musculus with 6 samples.

Results

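Thyroid hormone reaches its nuclear receptors through a chain of transporters and enzymes, and 6 genes of that chain were examined in the proximal end of the mouse incisor: Dio2, Dio3, Thra, Thrb, Slc16a10 and Klf9. They are 6 of the 25703 genes of the deposited count table, matched by symbol, and all 6 passed the filter on low counts. The set was chosen by the level of Dio2, which was about 3-fold lower in the mutant libraries, so the values of Dio2 between the genotypes are given as a description without a test. The other 5 genes were added for their place in thyroid hormone handling, with earlier results of these data known.

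The mutants, called Arid1a cKO here (3 libraries), carried Gli1-CreER with Arid1a fl/fl, and the controls (3 libraries) were Arid1a fl/fl mice without the CreER allele. All were C57BL/6 mice of 6 weeks. The labels give every sample, controls included, the same tamoxifen course: 3 daily doses at an age of 1 month, each of 1.5 mg for every 10 g of weight. Gli1-CreER is a tamoxifen-activated recombinase made in Gli1-expressing cells, so Arid1a, which encodes a DNA-binding subunit of SWI/SNF chromatin remodellers, is left intact in cells without that lineage. Whether each library was made from its own animal is not stated in the labels, so the p-values describe sample-to-sample spread, part of which may be technical.

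Thyroid cells release mostly the prohormone thyroxine (T4). Membrane transporters carry it into cells, where the deiodinase encoded by Dio2 converts it to the active hormone T3, while the deiodinase encoded by Dio3 inactivates both T4 and T3. T3 acts through the nuclear receptors encoded by Thra and Thrb, and Klf9, a zinc finger transcription factor, is a well-known gene induced by T3. Lack of thyroid hormone is known to delay tooth eruption.

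The start regions of the 2 deiodinase genes are shown because the results turn on Dio2 and on its ratio to Dio3. Both were taken from RefSeq (GRCm38.p6, the build also called mm10) and run from 250 bases before to 50 bases after the RefSeq transcript start. The Dio2 window is chr12:90738989-90739288 on the minus strand, and its start lies 600 bases upstream of the gene start in the deposited table. The Dio3 window is chr12:110278980-110279279 on the plus strand. Capitals mark the cAMP response element TGACGTCA and the TATA box TATAAA in Dio2, and the GC box GGGCGG on either strand and the TATA box TATAAA in Dio3.
Dio2: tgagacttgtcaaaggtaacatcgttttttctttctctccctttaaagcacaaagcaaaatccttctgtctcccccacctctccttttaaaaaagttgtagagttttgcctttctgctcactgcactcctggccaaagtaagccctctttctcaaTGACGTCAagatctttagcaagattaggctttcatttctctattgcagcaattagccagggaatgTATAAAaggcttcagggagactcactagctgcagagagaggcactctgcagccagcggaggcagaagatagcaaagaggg
Dio3: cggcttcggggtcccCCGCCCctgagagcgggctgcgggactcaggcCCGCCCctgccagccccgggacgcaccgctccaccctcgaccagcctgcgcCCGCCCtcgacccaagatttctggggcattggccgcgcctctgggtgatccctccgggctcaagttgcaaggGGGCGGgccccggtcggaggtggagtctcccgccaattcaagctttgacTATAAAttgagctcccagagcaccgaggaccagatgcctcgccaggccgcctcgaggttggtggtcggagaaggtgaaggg

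The Dio2 window holds the full cAMP response element, starting 95 bases before the transcript start, and a TATA box starting 30 bases before it. Of 32851 RefSeq windows of this length, 1.79% hold TGACGTCA on either strand and 8.32% hold TATAAA on the gene strand. Windows were found for 5 of the 6 genes, all except Thra, and Dio2 was the 1 member with the full element. Its first 5 letters, TGACG, which TGACGTCA contains on both strands, also occur in 1 of the 2 Thrb windows, in the Klf9 window and in 20.8% of all windows. The Dio3 window holds 4 GC boxes, which 35.7% of all windows hold at least 1 of, and a TATA box 31 bases before the start. Its GC content was 69.0%, against 44.7% in the Dio2 window and a median of 52.7% over all windows. The GLI motif GACCACCCA was in none of the members' windows and in 0.253% of all windows. The receptor core motif AGGTCA was in the same Thrb window and in 16.3% of all windows. A direct repeat of AGGTCA with 4 bases between the copies was in none of the members' windows and in 0.0152% of all windows. A match is a run of letters and was not tested as a binding site in this tissue.

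The libraries held 27300932 to 37908478 counts. Arid1a itself had 136, 139 and 145.3 CPM (counts divided by the TMM-scaled library size, on the usual CPM scale) in Arid1a cKO replicates 1 to 3, against 222, 249 and 223 CPM in control replicates 1 to 3. Incisor markers were present in every library: the odontoblast gene Dspp lay between 3412 and 4521 CPM in Arid1a cKO and between 1260 and 4332 CPM in control, and the ameloblast gene Amelx between 34.8 and 634 CPM in Arid1a cKO and between 134 and 1914 CPM in control. Amelx varied widely within each genotype. Arid1a cKO replicate 1 and control replicate 3 had Y-linked transcripts near 0 (0.051 and 0.11 CPM in sum), and the other 4 libraries had between 195 and 235 CPM. Xist stood at 2807 CPM in Arid1a cKO replicate 1 and 3894 CPM in control replicate 3, against 1.06 to 4.39 CPM in the other 4. By these genes, Arid1a cKO replicate 1 and control replicate 3 had a female pattern and the other 4 libraries a male one.

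Dio2 was lower in every Arid1a cKO library than in every control library. Its level was 26.6, 19.9 and 21.3 CPM in Arid1a cKO replicates 1 to 3, against 73.3, 60.7 and 90.5 CPM in control replicates 1 to 3. The estimated counts behind these values were 1042, 737 and 647 in Arid1a cKO and 2299, 1675 and 2477 in control. The groups did not overlap: the highest Arid1a cKO library was replicate 1 and the lowest control library replicate 2. Mean levels were 22.6 ± 3.49 CPM in Arid1a cKO and 74.8 ± 14.9 CPM in control (SD, n = 3 each), a 3.31-fold lower level in Arid1a cKO (log2 fold change -1.72, SE 0.171). Of 19613 genes tested, 54 had a lower log2 fold change. As bulk tissue was sequenced, fewer cells that express Dio2 and less Dio2 RNA per cell cannot be told apart.

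**Figure D1:**
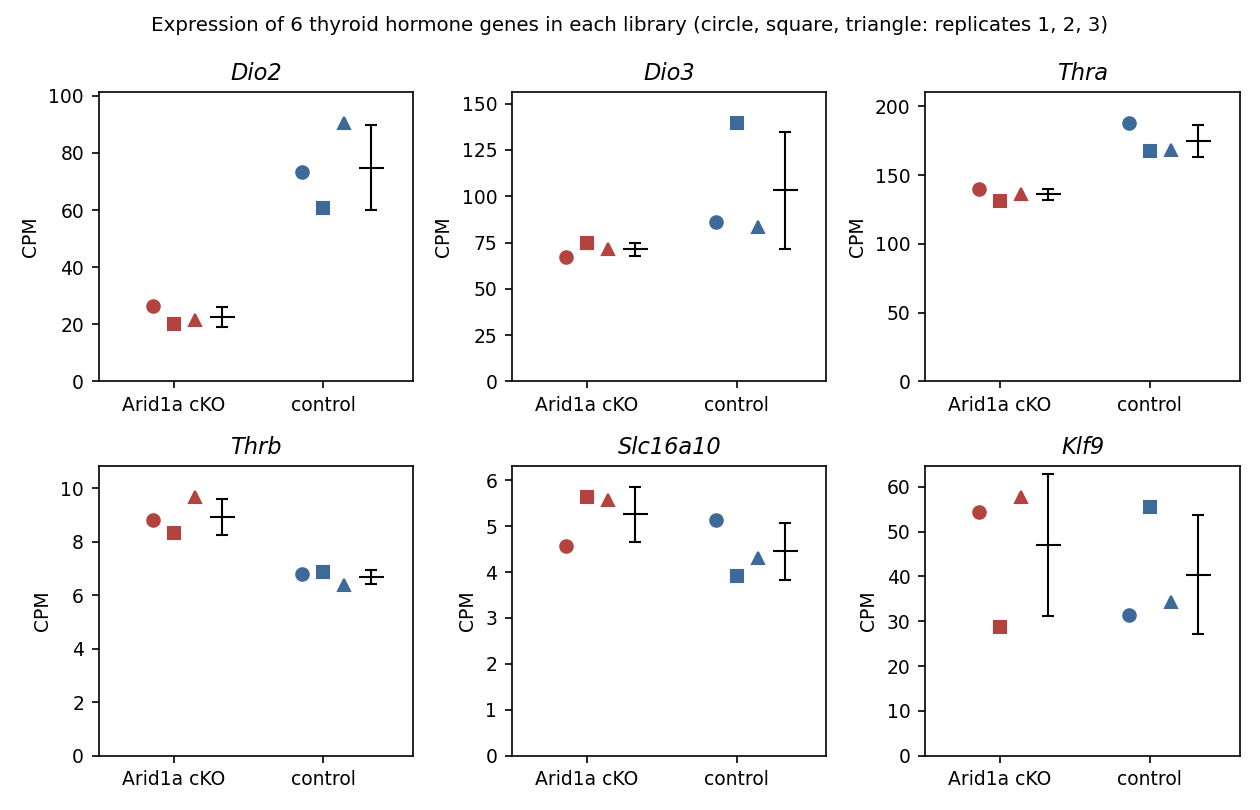
CPM (y axis, from 0) of the 6 genes in the Arid1a cKO and control libraries. Points are libraries, and the bar with whiskers is the mean ± SD of 3 libraries. Dio2, Dio3 and Thra are lower in all Arid1a cKO libraries, Thrb is higher in all of them, and Slc16a10 and Klf9 overlap between the genotypes.

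The size of the Dio2 difference was similar in both sets of libraries that Y-linked transcripts define. Dio2 was chosen for its difference in these same libraries, so this likeness and the fits below are a description. In the libraries with Y-linked transcripts Dio2 averaged 20.6 CPM in Arid1a cKO (2 libraries) and 67 CPM in control (2 libraries), which is 3.25-fold. In those without them it was 26.6 CPM in the 1 Arid1a cKO library and 90.5 CPM in the 1 control library, which is 3.41-fold. With the summed Y-linked level as a covariate the log2 fold change of Dio2 was -1.73 and its SE 0.0844, against 0.171 without it. Adding a score of dental epithelium markers to the fit gave -1.88 (SE 0.115).

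Some markers of the cell types in the tissue also differed between the genotypes, read against the 3.96% of all genes tested that passed the edgeR threshold (adjusted p under 0.05), 1.5% higher and 2.46% lower in Arid1a cKO. Of 10 dental follicle and periodontal ligament markers 3 fell, 0 rose and 7 did not pass, and their summed level was 2069 to 2102 CPM in Arid1a cKO against 3088 to 3197 CPM in control. The markers that fell were the small proteoglycan genes Fmod and Aspn and the collagen gene Col12a1. Fmod averaged 433 CPM in Arid1a cKO and 1273 CPM in control, while the matrix gene Postn averaged 441 CPM in Arid1a cKO and 299 CPM in control, so the list did not move as a whole.

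Of 10 cartilage markers 3 fell (Sox9, Col9a2 and Col9a3) and 0 rose by edgeR, with 1 higher and 6 lower by DESeq2, and a sum of 778 to 876 CPM in Arid1a cKO against 1195 to 1331 CPM in control. Here too members went both ways: Col2a1, the main cartilage collagen gene, had 5.76, 7.04 and 6.53 CPM in Arid1a cKO, against 4.11, 3.59 and 5.04 CPM in control, without overlap (edgeR adjusted p = 0.0884). Of 9 Schwann cell and nerve markers 0 passed by edgeR or by DESeq2 in either direction and 3 had an unadjusted edgeR p under 0.05, with a sum of 282 to 367 CPM in Arid1a cKO against 161 to 277 CPM in control.

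The summed levels of the other marker lists overlapped between the genotypes, but some of their members passed. Of 16 dental epithelium markers 2 rose (Epcam and Cldn4) and 0 fell by edgeR, 4 rose and 0 fell by DESeq2, and 13 had a log2 fold change above 0, with a sum of 1609 to 3338 CPM in Arid1a cKO against 1382 to 4842 CPM in control. Of 10 odontoblast markers 2 fell (Nes and Alpl), of 12 dental pulp and papilla markers 1 fell (Igfbp5), and of 7 tested osteoblast and osteocyte markers 1 rose (Sost). Of 9 pericyte and smooth muscle markers 1 rose (Myh11) and 1 fell (Notch3), and the groups did not overlap for 7 of the 9. The same held for 8 of the 12 dental pulp and papilla markers and 8 of the 10 cartilage markers. Among all genes tested, 29.1% had groups that did not overlap. The part of any of these lists in the Dio2 result was not tested, except that the Dio2 difference with the dental epithelium score in the fit is given above.

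Reads from Gm26512, a non-coding gene that runs the other way from the start of Dio2 and shares 100 exonic bases with it, could be split between both genes, as no source used here says whether counting used strand. Gm26512 had 26, 30 and 19 counts in Arid1a cKO and 21, 26 and 20 in control. The nearest tested protein-coding neighbours of Dio2 were Nrxn3 (390 kb away), with a log2 fold change of 0.19 (SE 0.504), and Cep128 (260.1 kb away), with 0.03 (SE 0.111), and neither passed the edgeR quasi-likelihood test (Benjamini-Hochberg adjusted p = 0.862 and 0.901).

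The genes with the profile most like that of Dio2 also fall into separate levels by genotype, as the search favours. Likeness was the root mean square difference over the 6 libraries between log2 CPM values centred on each gene's own mean, and 12830 genes with a mean of at least 2 CPM were compared. The 6 nearest were Sgsm1, a modulator of small GTPases (0.192), the TNF-induced gene Tnfaip2 (0.233), the axonal growth protein gene Gap43 (0.242), the water channel gene Aqp1 (0.242), the zinc finger gene Zcchc12 (0.256) and the receptor gene Gpr37 (0.276), against a median difference of 0.888. Aqp1 had 67.2, 47.2 and 51.3 CPM in Arid1a cKO replicates 1 to 3, against 139.9, 125 and 139.8 CPM in control replicates 1 to 3. Like Dio2, it was highest in replicate 1 among the Arid1a cKO libraries and lowest in replicate 2 among the control libraries. Tnfaip2 had 18.1, 15.5 and 13.7 CPM in Arid1a cKO and 75.4, 39.1 and 65.9 CPM in control. These genes were found by their resemblance, so their differences between the genotypes are a description.

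**Figure D2:**
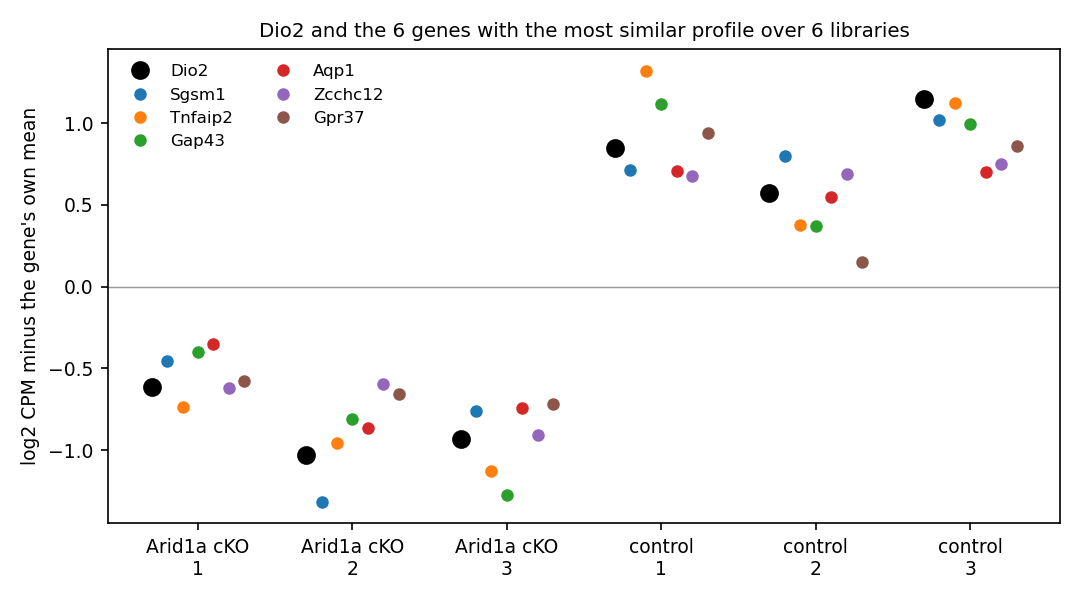
log2 CPM minus each gene's own mean (y axis) of Dio2 (black) and the 6 genes nearest to it, in each of the 6 libraries (x axis). Every point of the Arid1a cKO libraries is below 0 and every point of the control libraries above 0, with control replicate 2 below control replicate 3 for each gene.

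Dio3, the inactivating deiodinase, did not pass the test. Its level was 67.4, 74.8 and 71.7 CPM in Arid1a cKO replicates 1 to 3, against 86.2, 139.5 and 83.6 CPM in control replicates 1 to 3. The groups did not overlap, but control replicate 2 stood far above the other control libraries. Means were 71.3 ± 3.68 CPM in Arid1a cKO and 103 ± 31.6 CPM in control (SD, n = 3 each), with a log2 fold change of -0.53 (SE 0.203, edgeR adjusted p = 0.197). Without control replicate 2 the log2 fold change was -0.24 (adjusted p = 0.143). DESeq2 gave an adjusted p of 0.0434 for Dio3.

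Dio3 lies in an imprinted cluster on chromosome 12 beside the non-coding gene Dio3os, whose transcribed region in the table does not overlap it. Dio3os had 37.0, 47.2 and 40.7 CPM in Arid1a cKO, against 41.1, 67.2 and 47.7 CPM in control (log2 fold change -0.32, SE 0.19, edgeR adjusted p = 0.377). As for Dio3, control replicate 2 held the highest value. The third deiodinase gene, Dio1, had 0 to 3 counts in Arid1a cKO libraries and 2 in each control library and did not pass the filter.

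The ratio of Dio2 to Dio3 counts within a library needs no scaling between libraries. It was 0.394, 0.267 and 0.297 in Arid1a cKO replicates 1 to 3, against 0.850, 0.435 and 1.08 in control replicates 1 to 3. The groups did not overlap, although control replicate 2, which had the highest Dio3 and the lowest Dio2 level of the control libraries, came close to Arid1a cKO replicate 1. The ratio averaged 0.319 ± 0.0663 in Arid1a cKO and 0.789 ± 0.328 in control (SD, n = 3 each). Per kilobase of exon it averaged 0.111 in Arid1a cKO and 0.275 in control, so Dio3 was the more abundant transcript per length in both genotypes.

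Thra, the receptor gene with the higher level, fell in Arid1a cKO. Its level was 139.9, 131 and 137 CPM in Arid1a cKO replicates 1 to 3, against 188, 168 and 169 CPM in control replicates 1 to 3. The groups did not overlap, and the Arid1a cKO libraries lay close together. Means were 136 ± 4.3 CPM in Arid1a cKO and 175 ± 11.4 CPM in control (SD, n = 3 each), a 1.29-fold lower level in Arid1a cKO (log2 fold change -0.36, SE 0.066, edgeR adjusted p = 0.0298). Among the 5 members other than Dio2, Thra was the 1 that passed the threshold, which 2.46% of all genes tested passed with a lower level in Arid1a cKO. The Thra call was lost without any 1 of 5 of the 6 libraries (adjusted p of up to 0.105) and held without Arid1a cKO replicate 1 (0.042). It was also lost when the dental epithelium score was in the fit (edgeR adjusted p = 0.0741).

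Exons of Thra overlap those of Nr1d1, a clock repressor gene on the opposite strand, by 263 bases, so reads of the shared stretch could be assigned to either gene. Nr1d1 had 18.3, 22.9 and 20.6 CPM in Arid1a cKO, against 18.4, 20.0 and 24.6 CPM in control (log2 fold change -0.03, SE 0.13, edgeR adjusted p = 0.931). Thra is also known to give a splice form that does not bind T3, and the counts do not separate the forms.

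Thrb, the second receptor gene, was higher in every Arid1a cKO library but missed the threshold. Its level was 8.82, 8.31 and 9.66 CPM in Arid1a cKO replicates 1 to 3, against 6.79, 6.89 and 6.39 CPM in control replicates 1 to 3. The counts behind these values ran from 293 to 346 in Arid1a cKO and from 175 to 213 in control. Means were 8.93 ± 0.684 CPM in Arid1a cKO and 6.69 ± 0.263 CPM in control (SD, n = 3 each; log2 fold change 0.42, SE 0.112, edgeR adjusted p = 0.0829). Of the 5 members other than Dio2, 3 (Dio3, Thra and Thrb) had groups that did not overlap, and 29.1% of all genes tested had such groups.

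The count ratio of Thrb to Thra, computed after these values were seen, was 0.063, 0.0632 and 0.0707 in Arid1a cKO replicates 1 to 3, against 0.0361, 0.041 and 0.0379 in control replicates 1 to 3. The groups did not overlap, with a mean of 0.0656 ± 0.00438 in Arid1a cKO and 0.0384 ± 0.00249 in control (SD, n = 3 each). The ratio was 1.71-fold higher in Arid1a cKO. As Thra was lower and Thrb higher in every Arid1a cKO library, the groups had to separate. An exact permutation test of the log2 ratios gave p = 0.1, the smallest possible with 3 libraries in each group. Its outcome was fixed by that separation, so it adds no support. Per kilobase of exon Thrb stood at 0.0409 of Thra in Arid1a cKO and at 0.0239 in control.

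**Figure D3:**
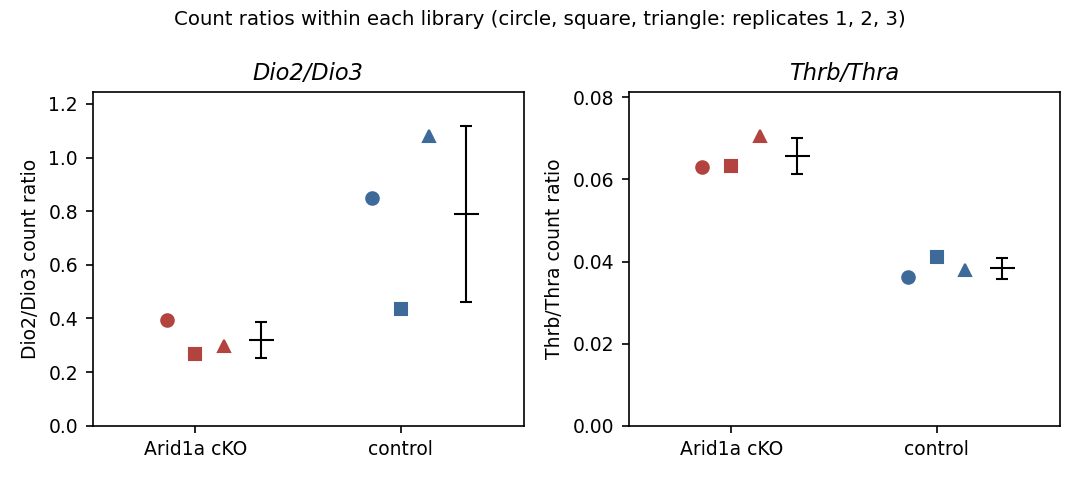
Count ratios (y axes, from 0) of Dio2 to Dio3 and of Thrb to Thra within each library. Points are libraries, and the bar with whiskers is the mean ± SD of 3 libraries. The Dio2 to Dio3 ratio is lower and the Thrb to Thra ratio higher in all Arid1a cKO libraries.

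Slc16a10 encodes a transporter of aromatic amino acids that also carries T3 and T4. It was the lowest of the 6 genes, with 4.56, 5.63 and 5.57 CPM in Arid1a cKO replicates 1 to 3, against 5.13, 3.91 and 4.31 CPM in control replicates 1 to 3. The groups overlapped, with a log2 fold change of 0.24 (SE 0.164, edgeR adjusted p = 0.438).

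Klf9, the T3-induced transcription factor gene, varied more within the genotypes than between them. It had 54.5, 28.8 and 57.7 CPM in Arid1a cKO replicates 1 to 3, against 31.3, 55.6 and 34.3 CPM in control replicates 1 to 3. Arid1a cKO replicate 2 and control replicates 1 and 3 were the low libraries, Arid1a cKO replicates 1 and 3 and control replicate 2 the high ones, so the groups overlapped. Means were 47 ± 15.8 CPM in Arid1a cKO and 40.4 ± 13.3 CPM in control (SD, n = 3 each), with a log2 fold change of 0.22 (SE 0.339, edgeR adjusted p = 0.759). In the libraries with Y-linked transcripts it averaged 43.2 CPM in Arid1a cKO and 43.4 CPM in control (2 libraries each), and in those without them it was 54.5 CPM in Arid1a cKO and 34.3 CPM in control (1 library each). Arid1a cKO replicate 2 was the lowest library for both Klf9 and Dio2. Their library order otherwise differed: Arid1a cKO replicate 3 was among the lowest for Dio2 and the highest for Klf9. The genes nearest to Klf9 in profile were Shisa3 and the matrix gene Tnn, with differences of 0.0948 and 0.0956, and Tnn is 1 of the follicle and ligament markers.

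**Figure D4:**
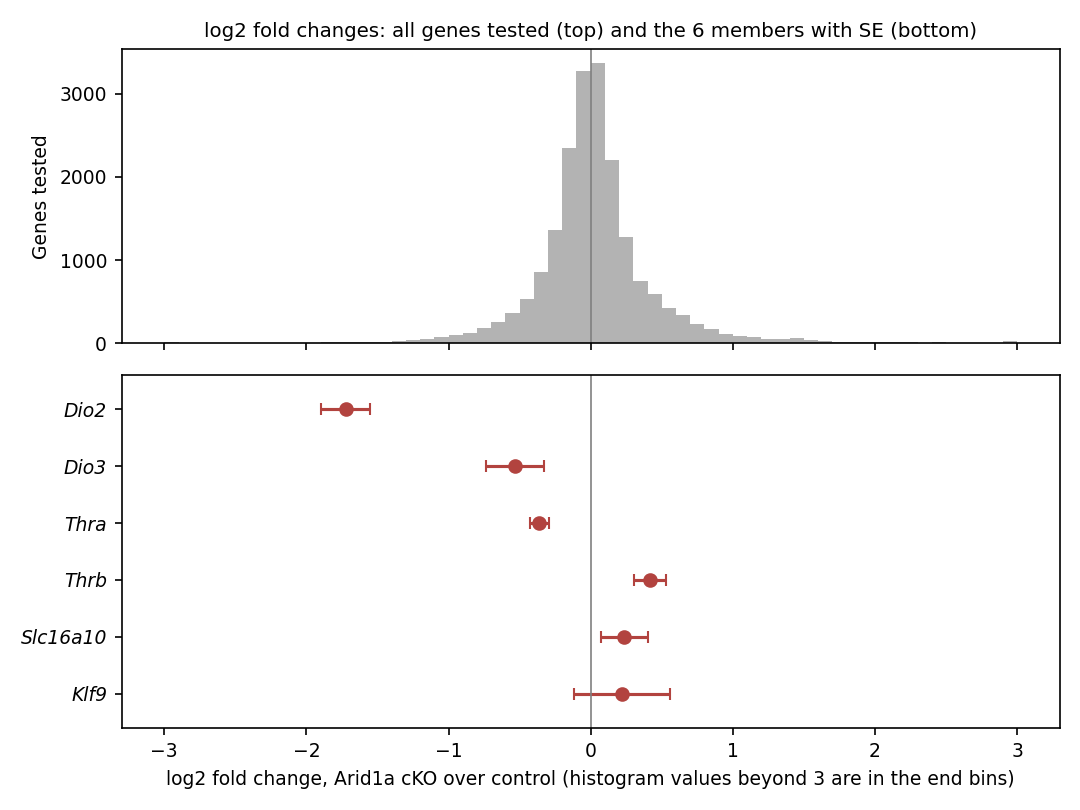
Top: log2 fold change of the 19613 genes tested, Arid1a cKO over control (x axis), with the number of genes (y axis). Bottom: log2 fold change ± SE of the 6 genes. Dio2 lies at -1.72 in the left tail, the other 5 between -0.53 and 0.42.

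Compared per kilobase of merged exons, Dio3 and Thra were the most abundant of the 6 genes in each of the 6 libraries and Thrb and Slc16a10 the least. In Arid1a cKO the order was Dio3 (35.1 ± 1.81 CPM per kb), Thra (29.5 ± 0.931), Klf9 (9.76 ± 3.29), Dio2 (3.89 ± 0.6), Thrb (1.21 ± 0.0924) and Slc16a10 (0.714 ± 0.0817; SD, n = 3 each). In control it was Dio3 (50.8 ± 15.6 CPM per kb), Thra (37.9 ± 2.47), Dio2 (12.9 ± 2.57), Klf9 (8.39 ± 2.75), Thrb (0.903 ± 0.0355) and Slc16a10 (0.605 ± 0.0843; SD, n = 3 each). The place of Dio2 and Klf9 was the difference: Klf9 was above Dio2 in each Arid1a cKO library and in control replicate 2, and below it in the other control libraries. In control, the mean of Thra lay within the SD of Dio3, and the ranges of Dio2 (10.4 to 15.6 CPM per kb) and Klf9 (6.50 to 11.5 CPM per kb) overlapped. Exon lengths came from an annotation that may differ from the authors' own.

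**Figure D5:**
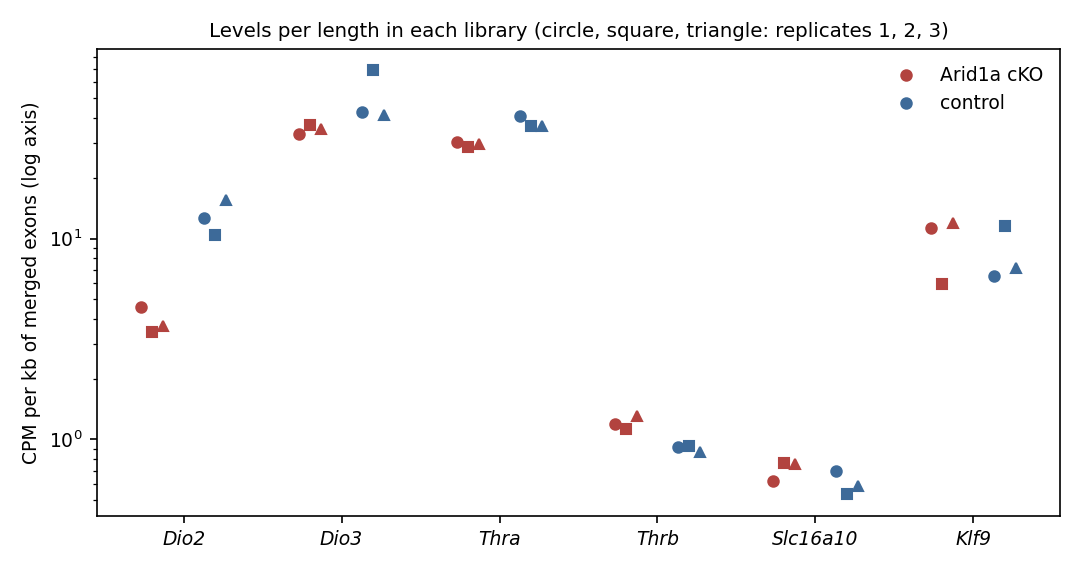
CPM per kb of merged exons (y axis, log scale) of the 6 genes in each library, Arid1a cKO left of control. Dio2 lies below 5 in every Arid1a cKO library and above 10 in every control library. Dio3 and Thra are the 2 highest genes and Thrb and Slc16a10 the 2 lowest in every library.

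Genes around the members were read from 10 lists that held 174 further genes, 153 of which were tested. The lists were chosen with earlier results known. Of the tested genes, 4 rose, 6 fell and 143 did not pass by edgeR, 6.54% called against 3.96% of all genes, and the groups did not overlap for 26.8% of them against 29.1% of all genes. The median log2 fold change was -0.02, against 0.0043 over all genes tested.

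In transport, 0 of 10 tested genes rose and 0 fell by edgeR or by DESeq2, 1 had an unadjusted edgeR p under 0.05, and the median log2 fold change was 0.15. The amino acid and hormone transporter gene Slc7a5 had 64.1, 44.1 and 44.2 CPM in Arid1a cKO and 37.5, 44.6 and 35.5 CPM in control (adjusted p = 0.251). Crym, which encodes a T3-binding protein of the cytosol, ranged from 4.52 to 14.2 CPM in Arid1a cKO and from 0.913 to 7.36 CPM in control, so its groups overlapped (adjusted p = 0.426). Among 13 tested genes of hormone production and selenoprotein synthesis 1 rose and 0 fell, with a median of 0.0083. It was Sephs2, whose product makes the selenium donor that deiodinases and other selenoproteins need. Sephs2 had 27.4, 25.2 and 26.2 CPM in Arid1a cKO, against 20.2, 21.2 and 21.5 CPM in control (log2 fold change 0.33, SE 0.0692, edgeR adjusted p = 0.045), and its call was lost without any 1 of the 6 libraries (adjusted p of 0.0724 to 0.137). Secisbp2, whose product reads the selenocysteine signal, stood at a log2 fold change of 0.0083 (edgeR adjusted p = 0.967).

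The DIO2 protein is known to be removed by ubiquitination, through WSB1 and MARCH6, and rescued by the deubiquitinases USP33 and USP20. Of the 10 genes of this cycle, 0 rose and 0 fell by edgeR or by DESeq2 and 3 had an unadjusted edgeR p under 0.05, with a median of -0.03 and log2 fold changes from -0.25 to 0.1. Wsb1 had 99.3, 132 and 116 CPM in Arid1a cKO, against 130.3, 148 and 136 CPM in control (adjusted p = 0.222). Cul5, which encodes the cullin of WSB1-type ligases, had 71.9, 79.2 and 78.9 CPM in Arid1a cKO, against 90.6, 90.3 and 86.2 CPM in control. Its groups did not overlap, but it missed the threshold (log2 fold change -0.22, SE 0.0606, edgeR adjusted p = 0.0901). Usp33 averaged 57.0 ± 4.13 CPM in Arid1a cKO and 57.5 ± 3.19 CPM in control (SD, n = 3 each; edgeR adjusted p = 0.946). Protein levels were not measured.

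Among 21 receptor partners and coregulators 1 rose and 0 fell, with a median of -0.06. The retinoid X receptor gene Rxrg, a partner of thyroid hormone receptors, had 3.13, 3.17 and 3.23 CPM in Arid1a cKO, against 1.88, 1.41 and 1.79 CPM in control (log2 fold change 0.90, SE 0.183, edgeR adjusted p = 0.0396), and its call was lost without any 1 of the 6 libraries (0.0694 to 0.114). Rxra, the partner gene with the far higher level, averaged 116 ± 6.83 CPM in Arid1a cKO and 113 ± 1.26 CPM in control (SD, n = 3 each; edgeR adjusted p = 0.745). The coactivator gene Ncoa1 had 81.6, 96.2 and 96.9 CPM in Arid1a cKO, against 110.3, 111 and 104 CPM in control, without overlap (edgeR adjusted p = 0.118). For the corepressor gene Ncor1 the log2 fold change was -0.10 (edgeR adjusted p = 0.416).

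Of 22 tested genes that respond to T3 in 1 or more tissues, 0 rose and 1 fell, with a median log2 fold change of -0.07 and 5 of 22 above 0, against 50.8% of all genes. Their log2 fold changes ran from -1.58 (the calcium pump gene Atp2a1, edgeR adjusted p = 0.368) to 1.01 (the myelin gene Mbp, edgeR adjusted p = 0.246). Their summed level was 1870 to 1911 CPM in Arid1a cKO against 2073 to 2203 CPM in control, without overlap. The sums of the DIO2 ubiquitin cycle, cAMP and KLF lists were likewise lower in Arid1a cKO without overlap. Abundant genes weigh on such sums: Gnas of the cAMP list averaged 962 CPM in Arid1a cKO and 1039 CPM in control (edgeR adjusted p = 0.491). In the KLF list 8 of 13 tested genes had a log2 fold change above 0. Of the T3 genes, 27.3% had groups that did not overlap, against 29.1% of all genes tested. Other lists leaned too: 6 of 21 receptor partners and coregulators and 3 of 10 ubiquitin cycle genes had log2 fold changes above 0. In transport 8 of 10 were above 0, and among glucocorticoid genes 10 of 12. Mme averaged 328 CPM in Arid1a cKO and 409 CPM in control, and Tbc1d4 217 CPM in Arid1a cKO and 294 CPM in control. Both weigh on the sum of the T3 genes, and neither passed (edgeR adjusted p = 0.0846 and 0.198). The gene that fell was Ppargc1a, a coactivator of mitochondrial and thermogenic genes, with 6.01, 7.5 and 8.97 CPM in Arid1a cKO, against 15.1, 13.1 and 14.5 CPM in control (log2 fold change -0.93, SE 0.152, edgeR adjusted p = 0.0217). Its call held without 3 of the 6 libraries in turn and was lost without Arid1a cKO replicate 2 or control replicate 1 or 3 (adjusted p of up to 0.0807). Me1, which encodes malic enzyme, a classic T3 target in rodent liver, had 112, 136 and 117 CPM in Arid1a cKO, against 173, 143 and 139 CPM in control. Its groups did not overlap, but it missed the threshold (log2 fold change -0.32, SE 0.107, edgeR adjusted p = 0.138). Hr, a corepressor gene that T3 induces in brain, averaged 37.6 ± 4.68 CPM in Arid1a cKO and 39.6 ± 4.81 CPM in control (SD, n = 3 each; edgeR adjusted p = 0.76). Thrsp, a liver gene strongly induced by T3, was at or below 1.25 CPM in every library.

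The Dio2 gene is known to be induced by cAMP through a cAMP response element in its promoter. In a list of 21 cAMP pathway genes 0 rose and 1 fell, with a median of -0.09. Creb1, which encodes a protein that binds this element, had 87.3, 98.1 and 102.8 CPM in Arid1a cKO, against 122, 132 and 117 CPM in control (log2 fold change -0.37, SE 0.0781, edgeR adjusted p = 0.046). The groups did not overlap, but the call was lost without any 1 of the 6 libraries (0.0741 to 0.128) and in 7 of 13 other fits. Prkacb, a gene for a catalytic subunit of the cAMP-dependent kinase, had 130.1, 134 and 139 CPM in Arid1a cKO, against 158, 157 and 142 CPM in control (edgeR adjusted p = 0.152). Pth1r, the receptor gene for parathyroid hormone, which signals through cAMP, averaged 39.4 ± 2.32 CPM in Arid1a cKO and 46.3 ± 0.709 CPM in control (SD, n = 3 each; edgeR adjusted p = 0.0849).

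Klf9 also responds to glucocorticoids and to the circadian clock. Among 12 tested glucocorticoid genes 1 rose and 1 fell, with a median of 0.28: the metallothionein gene Mt2 rose (log2 fold change 0.70, edgeR adjusted p = 0.029) and the lipase inhibitor gene Angptl4 fell (-0.95, adjusted p = 0.0298). Each of these calls held without 1 of the 6 libraries in turn (control replicate 3) and was lost without each of the others. Of 19 clock genes 0 rose and 0 fell by edgeR, 5 had an unadjusted edgeR p under 0.05, and DESeq2 called 1 higher and 3 lower. Their median was -0.06, and Nr1d2, the nearest tested gene above Thrb on chromosome 14, gave -0.28 on the log2 scale (edgeR adjusted p = 0.0598). Clock, the activator gene of the circadian loop, had 94.5, 104.8 and 107.8 CPM in Arid1a cKO, against 119, 135 and 123 CPM in control, without overlap (edgeR adjusted p = 0.0709). Bhlhe40 of the same list was higher in Arid1a cKO, also without overlap (log2 fold change 0.45, edgeR adjusted p = 0.0991). Among 13 other tested KLF family genes 0 rose and 2 fell, Klf8 (-0.65, adjusted p = 0.0287) and Klf3 (-0.47, adjusted p = 0.0431), with a median of 0.05, and both calls were lost without any 1 of the 6 libraries. Klf6 had 150.5, 132 and 147 CPM in Arid1a cKO, against 177.5, 171 and 184 CPM in control, and just missed the threshold (edgeR adjusted p = 0.0519). Klf5 went the other way, with overlapping groups (log2 fold change 0.65, edgeR adjusted p = 0.13).

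Hedgehog signalling is known to induce Dio3 in mouse skin and to lower DIO2 through WSB1 in the chicken growth plate. Smo, the transducer gene of the pathway, had 229, 235 and 245 CPM in Arid1a cKO, against 208, 216 and 212 CPM in control (edgeR adjusted p = 0.179). Gli1 fell (log2 fold change -0.52, edgeR adjusted p = 0.0162), with its call lost without Arid1a cKO replicate 3 or control replicate 2 or 3 (adjusted p of up to 0.0674), and the CreER allele that is named after it was in the Arid1a cKO mice alone.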

How the data were processed

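Bulk RNA-seq of 6 libraries was used, 3 for each genotype. STAR 2.6.1d, Partek and the build mm10 are named per the submitters' processing notes. Annotation release, library kit and strand handling: not given in the sources used here. The deposited files are estimated counts (25703 genes) and a signal table that the authors normalized (21456 genes). The counts were rounded to whole numbers, genes kept by filterByExpr (minimum count 10; 19613 genes), scaled by TMM and compared by the edgeR 4.0.16 quasi-likelihood test (robust, two-sided, no covariate), with Benjamini-Hochberg adjustment over all genes tested and 0.05 as threshold. SEs were derived from the F statistic (size of the log2 fold change over the root of F). The fit was tested on simulated data. CPM use TMM-scaled library sizes, and log2 CPM a prior count of 2. R 4.3.3, limma 3.58.1, DESeq2 1.42.0, Python 3.11.15 and scipy 1.17.1 were also used.

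Exon lengths and overlaps came from GENCODE M21, which holds 97.5% of the symbols, and ends are printed as the deposited stop minus 1. Replicate numbers follow accession order. No 2 libraries were alike within sampling noise (chi-square per degree of freedom of at least 29.3). Members and lists were chosen with earlier results of these data known. Named genes are the members, up to 4 of smallest p per pathway list, the 6 most like Dio2, overlapping genes, Arid1a and markers of lists whose sums did not overlap; not all of them are printed. Crym, Secisbp2, Usp33, Rxra, Ncor1, Hr, Thrsp, Dio1, Dio3os and Gnas were named after their values were seen. So were the neighbours, Atp2a1, Mbp, most tissue markers and genes most like Klf9. Some genes that this rule names are not reported here.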

Additional observations from a re-analysis of the deposited data

How the results depend on the processing

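The log2 fold change of Dio2 lay between -1.88 and -1.56 in all 19 alternatives, less than the SD between libraries (0.254 on the log2 scale) from -1.72. The other members kept their sign in these fits, but for Klf9 this says little: its log2 fold change of 0.22 ranged from 0.047 (epithelium score) to 0.53 (without control replicate 2). Dio3 passed with DESeq2 (log2 fold change -0.53) and in no other fit. Thra missed the threshold with the dental epithelium score (-0.35) and in 5 of the 6 fits that leave out a library, in which its log2 fold change ranged from -0.38 to -0.30; the cause with the score was not tested. Thrb, Slc16a10 and Klf9 stayed above 0.05 throughout, with Thrb nearest at 0.0512 (DESeq2). The number of pathway genes called, 10, was 18 with DESeq2, 2 with the epithelium score and 1 to 5 with a library left out. The number of all genes called, 777, was 1935 with DESeq2, 395 with the epithelium score, 1239 with the Y-linked level as covariate and 160 to 532 with a library left out, where fewer samples enter. No scaling moved the median of all genes by more than 0.0247 (log2). No paired analysis was possible because the sample titles of the genotypes share only 1 number. With 108 to 208 counts per library, Slc16a10 is the member most limited by depth.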
